A study of Mus musculus with 8 samples.

Results

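The cytosolic ribosomal protein genes are described here in stem cell-enriched fractions of mouse spine and long bone. Members were the rows of the deposited protein-coding table whose symbol is Rpl or Rps with a number and at most a short suffix, Rplp with a number, or Rpsa. The rule found 83 genes among 22053 rows. Of these, 76 were canonical ribosomal protein genes (31 of the small subunit, 42 of the large subunit and 3 of the stalk) and 7 were paralogues, copies whose symbol carries an l after the number (Rpl39l, Rpl22l1, Rps27l, Rpl7l1, Rpl6l, Rpl10l and Rpl3l). Rpl13 had no row used here and was not analysed.

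Bulk RNA sequencing was done on 8 libraries from wild-type mice at postnatal day 10, 4 of candidate vertebral skeletal stem cells (vSSC) taken from the spine and 4 of long bone skeletal stem cells (lbSSC) taken from femur and tibia. Each group had 2 male libraries (replicates 1 and 2) and 2 female libraries (replicates 3 and 4). All 8 were sorted by one surface phenotype: CD200 present, and CD105, 6C3, Thy, CD45, TER119 and CD31 absent. Libraries of one group are termed biological replicates in the labels, with no number of animals behind a library, and the p-values therefore reflect only how much these libraries spread.

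A cytosolic ribosome joins a small subunit, which reads the messenger RNA, and a large subunit, which forms peptide bonds. Each subunit is built from ribosomal RNA and a set of proteins of which most are encoded by a single active gene, and the stalk proteins on the large subunit recruit the elongation factors. Most ribosomal protein messages start with a run of pyrimidines, the 5′ terminal oligopyrimidine tract, through which mTOR and LARP1 control their translation as a group, so message level and protein output can part. In the skeleton, ribosomal protein genes are known from mouse mutants with patterning defects of the spine and tail (Rpl38, Rpl24) and from Diamond-Blackfan anaemia, a human disease with bone malformations (Rps19, Rpl5, Rpl11, Rps26).

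Levels are in FPKM, a fragment count divided by transcript length and library size. A difference is the vSSC mean less the lbSSC mean of log2(FPKM + 1), with its SE, a scale on which changes of weakly expressed genes look too small. A gene was called where the limma test gave p under 0.05 after Benjamini-Hochberg adjustment over all rows tested. Rows were tested if 4 or more of the 8 libraries reached an FPKM of 1. All 76 canonical members passed this filter, as did Rpl39l, Rpl22l1, Rps27l and Rpl7l1, so 80 of the 83 members were among the 10729 rows tested. Of the rest, Rpl10l was listed at 0 in every library, and Rpl3l was listed at 0 in every library except vSSC replicate 1 (0.136 FPKM) and lbSSC replicate 2 (0.0492 FPKM). Rpl6l lay between 0.396 and 0.924 FPKM in all 8 libraries, with the groups overlapping. Rpl10l and Rpl3l are best known from testis and from striated muscle.

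Library sums of FPKM ranged from 460302 to 571869, and between 10337 and 10753 rows per library reached an FPKM of 1. Without read totals, the counting error of a single value is unknown. Cd200, the positive marker of the sort, was called in neither direction, and Pecam1, Ptprc and Thy1, markers of the depleted cells, stayed below 1 FPKM. Enpep and Eng, further markers of depleted cells, did reach 1 FPKM in some library, but in too few libraries to be tested. Of 7 chondrocyte markers, Matn3 (1506 ± 88.6 FPKM in vSSC, 542 ± 85.9 in lbSSC) and Hapln1 (1887 ± 176, 1004 ± 108) were called higher in vSSC, while their summed FPKM, mostly Col2a1, overlapped (15126 to 23982 in vSSC, 16496 to 26521 in lbSSC). Of 7 osteoblast markers, Sp7 (44.8 ± 3.28, 29.1 ± 4.23) was called higher, and Col1a1 (723 ± 71.5, 4093 ± 836) and Bglap (69.9 ± 31.5, 207 ± 105) lower. The osteoblast sums, in lbSSC mostly Col1a1, were 1608 to 1874 in vSSC and 4606 to 6679 in lbSSC. Among markers of other cells, 5 of 7 tested neutrophil genes were called higher in vSSC (summed FPKM 288 to 443 against 27.7 to 126), and 3 of 8 erythroid genes were called lower (3818 to 5372 against 4285 to 8831). Of the B and T cell markers, both tested genes, Cd79a (5.19 ± 1.18 FPKM against 0.999 ± 0.826) and Cd79b (3.72 ± 1.99 against 0.486 ± 0.363), were called higher (summed FPKM 8.78 to 12.7 against 0.805 to 6.57), and Cd3g and Cd3e were at 0 in all 8 libraries. Of 4 tested macrophage and osteoclast markers, Lyz2 and Cd14 were called higher and Ctsk and Acp5 lower (summed FPKM 70.02 to 108 against 115 to 138). Endothelial markers summed to at most 1.33 FPKM in any library. Muscle markers summed to 19.02 to 30.8 FPKM in vSSC and to 4.51 to 6.28 in lbSSC (1 of 2 tested genes called higher, Myh3 at 0 in every library), and 3 of 4 tested Schwann cell genes were called higher. The part of these cells in the values below was not tested.

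The start sites of several members that the results turn on are shown first, in view of the pyrimidine tract described above. Membership itself was set by symbol and not by sequence. RefSeq promoters (GRCm38.p6) matched 62 members with 74 start sites. Each line gives the 30 bases around the annotated start, with 15 bases on each side, 5′ to 3′ on the gene's strand. Capitals mark the longest unbroken run of C and T anywhere in the window, which need not begin at the start.
Rps6, chr4:86857353-86857382, minus strand: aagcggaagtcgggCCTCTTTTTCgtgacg
Rps12, chr10:23787195-23787224, minus strand: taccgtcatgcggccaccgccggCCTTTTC
Rps26, chr10:128626492-128626521, minus strand: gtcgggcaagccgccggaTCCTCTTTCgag
Rpl35, chr2:39005117-39005146, minus strand: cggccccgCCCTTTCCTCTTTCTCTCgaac
Rpl38, chr11:114668565-114668594, plus strand: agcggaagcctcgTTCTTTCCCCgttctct
Rpl24, chr16:55966260-55966289, plus strand: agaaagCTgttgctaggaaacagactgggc
Rpl22l1, chr3:28805493-28805522, plus strand: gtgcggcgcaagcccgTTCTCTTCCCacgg
Rpl39, chrX:37085208-37085237, minus strand: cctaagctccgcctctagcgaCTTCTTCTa
Rpl39l, chr16:10170213-10170242, plus strand: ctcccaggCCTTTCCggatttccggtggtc
The run was 18 bases long at Rpl35, 10 at Rps6, 9 at Rps26, 8 at Rpl39, 7 at Rpl39l and 2 at Rpl24. At Rps12 the run meets the end of the window after 7 bases and goes on to 11 in the longer promoter sequence.

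A run of at least 8 pyrimidines within this 30-base window was found at 27 of the 74 member start sites (36.5%), against 12.0% of the 32851 RefSeq promoters. The motif CGGAAG, or its reverse complement CTTCCG, lay in the 300 bases from 250 before to 50 after the start at 45 of 74 member sites (60.8%) and in 16.9% of all promoters. CGGAAG is the core bound by ETS family factors such as GABPA. Among canonical members with a matched promoter, the median site difference was 0.41 in the 24 with at least 8 such bases in a row inside the window and 0.42 in the other 32, Rps12 among them, and 0.43 in the 40 with the motif and 0.38 in the 16 without. These are matches of letters in one annotated window and show no binding.

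On average, ribosomal protein genes held a larger share of the protein-coding FPKM in vSSC than in lbSSC. The 83 members made up 21.2%, 19.5%, 21.4% and 18.3% of the summed FPKM in vSSC replicates 1 to 4, and 18.4%, 17.9%, 15.7% and 15.7% in lbSSC replicates 1 to 4. The 3 highest libraries were all vSSC, but vSSC replicate 4 lay just below lbSSC replicate 1, so the groups overlapped. The group means were 20.1% ± 1.48 and 16.9% ± 1.43 (SD, n = 4 each), 3.17 percentage points apart, and 1.96 points apart without vSSC replicates 1 and 3. In bulk samples, fewer cells of a type and less message per cell cannot be told apart.

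The 3 structural classes stood in similar proportion in both groups, with a slightly higher ratio of small to large subunit FPKM in vSSC. Small subunit genes held 9.85% ± 0.818 of the summed FPKM in vSSC and 8.13% ± 0.671 in lbSSC, large subunit genes 8.07% ± 0.572 and 6.90% ± 0.510, and stalk genes 2.05% ± 0.118 and 1.77% ± 0.242. The ratio of small to large subunit FPKM was 1.22 ± 0.0214 in vSSC and 1.18 ± 0.0142 in lbSSC. This ratio was 1.24, 1.23, 1.22 and 1.19 in vSSC replicates 1 to 4 and 1.19, 1.18, 1.18 and 1.16 in lbSSC replicates 1 to 4. The lowest vSSC library, replicate 4 (1.1896), lay barely above the highest lbSSC library, replicate 1 (1.1890), and the other vSSC libraries lay further above. The difference in this ratio was not tested.

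**Figure D1:**
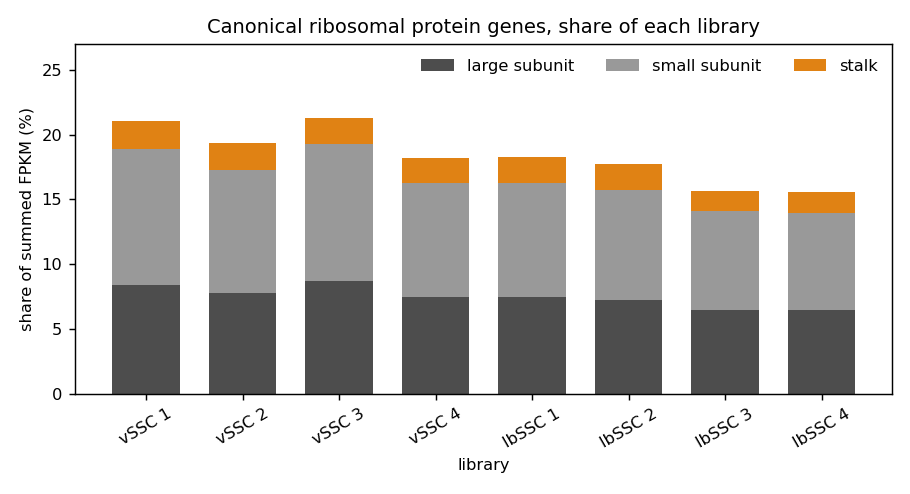
Share of each library's summed FPKM held by the canonical ribosomal protein genes (y axis, percent), stacked by large subunit, small subunit and stalk, for the 4 vSSC and 4 lbSSC libraries (x axis). The 3 tallest bars are vSSC replicates 1, 2 and 3, while vSSC replicate 4 stands level with lbSSC replicate 1.

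Gene by gene, the site difference was small and pointed one way. All 76 canonical members had a difference above 0, against 58.6% of all rows tested, and their median difference was 0.39 (1.31-fold), from 0.02 for Rps20 to 0.66 for Rps12, against 0.08 over all rows. Higher levels in vSSC were called for 33 of the 80 members (41.3%), all of them canonical, where 14.3% of all rows were called higher. A lower level was called for 1 member, Rpl39l, where 9.17% of all rows were called lower. In 24 members (30%) every vSSC library lay above every lbSSC library, which held for 15.8% of all rows, and in 1 member, Rpl39l, every vSSC library lay below every lbSSC library (9.99% of all rows).

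The calls stood close to the threshold. Adjusted p-values of the 33 called members ran from 0.0122 to 0.0496, and 17 further canonical members lay between 0.05 and 0.1. The number called higher rested on single libraries. It was 2 of 80 without vSSC replicate 1 or without vSSC replicate 3, where 8.06% and 8.32% of all rows were called higher, 1 without lbSSC replicate 3 (7.92% of all rows) and 4 without lbSSC replicate 4 (7.82%). In these 4 fits the members' share called was thus below that of all rows. At an unadjusted limma p under 0.05, however, 40, 39, 41 and 43 of the 80 members were higher, in that order. The shares of all rows were then 19.6%, 19.8%, 19.5% and 17.8%. The canonical median was 0.36, 0.35, 0.37 and 0.32 in these fits. Leaving out vSSC replicate 2 gave 11 (10.1% of all rows), leaving out vSSC replicate 4 gave 51 (17.5%), and the fits lacking lbSSC replicate 1 or lbSSC replicate 2 gave 43 (14.1%) and 31 (13.3%). No member was called higher by limma without both vSSC replicates 1 and 3, where the canonical median was 0.27 and 4 members were higher at an unadjusted p under 0.05 (13.9% of all rows). None was called either on leaving out lbSSC replicates 1 and 4, a fit added once the data were known, where the median was 0.38 and 56 members were higher at an unadjusted p under 0.05 (16.2% of all rows).

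**Figure D2:**
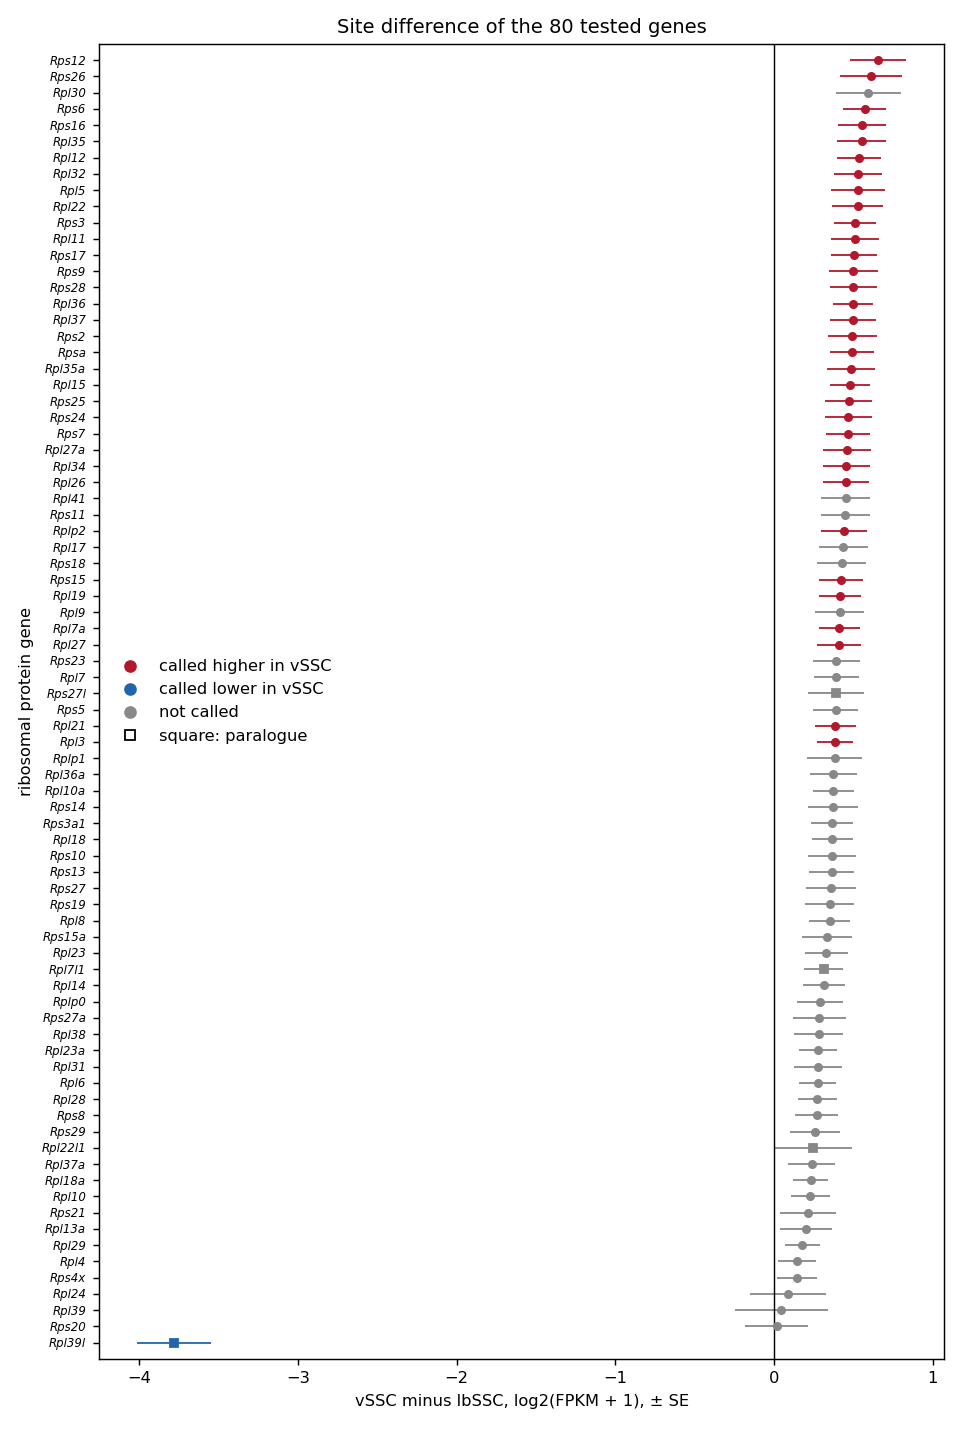
Site difference of the 80 tested members (x axis, vSSC minus lbSSC in log2(FPKM + 1) units; points are differences and bars SE), ordered by size (y axis), with paralogues as squares. Every canonical member lies to the right of 0, between 0.02 and 0.66, and Rpl39l lies alone at -3.78.

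The small subunit had 14 of 31 members called higher, with a median difference of 0.42. Rps6, the target of S6 kinase that reads out mTOR activity when phosphorylated, was at 1077, 928, 1034 and 844 FPKM in vSSC replicates 1 to 4 and at 665, 761, 672 and 522 in lbSSC replicates 1 to 4. Every vSSC library was above every lbSSC library, and the difference was 0.57 ± 0.14 (limma, Benjamini-Hochberg adjusted p = 0.0122), the smallest p of any canonical member. Rps6 was called whichever single library was left out (adjusted p 0.00908 to 0.0417), but not without both vSSC replicates 1 and 3 (0.133) or both lbSSC replicates 1 and 4 (0.0834).

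Rps12, a component of the head of the small subunit, had the largest difference of a canonical member. It was at 5310, 4258, 5017 and 3475 FPKM in vSSC and at 3185, 3309, 2735 and 2212 in lbSSC. The lowest vSSC library, replicate 4, still lay above the highest lbSSC library, and the difference was 0.66 ± 0.18 (adjusted p = 0.0210). Rps16, a component of the same subunit, was at 892 ± 135 FPKM in vSSC against 608 ± 97.6 in lbSSC (0.55 ± 0.15, adjusted p = 0.0230). The calls of Rps12 and Rps16 were both lost on leaving out vSSC replicate 1, vSSC replicate 3, lbSSC replicate 3 or lbSSC replicate 4, with adjusted p up to 0.0667 for Rps12 and 0.0685 for Rps16.

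Rpsa, which is also known as the laminin receptor and is mutated in isolated congenital asplenia, was at 1071 ± 102 FPKM in vSSC against 768 ± 128 in lbSSC (0.49 ± 0.14, adjusted p = 0.0269), and its groups did not overlap. Rps15 was at 2693 ± 300.1 and 2011 ± 254 FPKM (0.42 ± 0.14, adjusted p = 0.0446) and also showed no overlap. Rps19, the gene most often mutated in Diamond-Blackfan anaemia, was at 991 ± 136 and 780 ± 149 FPKM and was not called (0.35 ± 0.15, adjusted p = 0.114). The call of Rpsa was lost without vSSC replicate 1 or 3 or lbSSC replicate 3 or 4 (adjusted p up to 0.0771), and that of Rps15 also without vSSC replicate 2 or lbSSC replicate 2 (up to 0.119).

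Of the large subunit, 18 of 42 members were called higher, with a median difference of 0.39. Rpl35, which lies at the exit of the nascent peptide tunnel and has the longest pyrimidine run of the starts shown, was at 689, 551, 667 and 525 FPKM in vSSC and at 488, 487, 374 and 322 in lbSSC. The groups did not overlap, and the difference was 0.55 ± 0.16 (adjusted p = 0.0257). This call was lost without vSSC replicate 1 or 3 or lbSSC replicate 3 or 4 (adjusted p up to 0.0754). In the annotation Rpl35 overlaps Wdr38 and Arpc5l, and the library chemistry does not mark strand.

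Rpl5 and Rpl11 form, with the 5S ribosomal RNA, the particle that binds Mdm2 and stabilises p53 when ribosome assembly fails. Rpl5 was at 470, 429, 546 and 409 FPKM in vSSC and at 290.0, 425, 355 and 236 in lbSSC, and Rpl11 at 699, 597, 720 and 558 against 460.1, 568, 443 and 349. In both genes lbSSC replicate 2 reached above the lowest vSSC library, so the groups overlapped. The differences were 0.53 ± 0.17 (adjusted p = 0.0442) and 0.51 ± 0.15 (adjusted p = 0.0310). Neither call held without vSSC replicate 1, 2 or 3 or lbSSC replicate 3 or 4, nor did that of Rpl5 without lbSSC replicate 1 (adjusted p up to 0.121 for Rpl5 and 0.0875 for Rpl11).

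Rpl19, Rpl7a, Rpl21 and Rpl3 were the called members with the smallest differences among those without overlap, together with Rps15. Rpl3, which lies near the peptidyl transferase centre, was at 576 ± 31.7 FPKM in vSSC against 443 ± 55.5 in lbSSC (0.38 ± 0.11, adjusted p = 0.0330). The other 3 differed by 0.42 (Rpl19), 0.41 (Rpl7a) and 0.39 (Rpl21), with adjusted p of 0.0426, 0.0403 and 0.0483. All 4 calls were lost without vSSC replicate 1, 2 or 3 or lbSSC replicate 3 or 4, and that of Rpl21 also without lbSSC replicate 1 (adjusted p up to 0.133, for Rpl21).

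Rpl38 and Rpl10a, large subunit genes chosen by name, were not called with all libraries. Rpl38, whose loss in the Tail-short mouse alters the identity of vertebrae and the translation of Hox messages, was at 1354, 1232, 1548 and 1105 FPKM in vSSC and at 1368, 1023, 885 and 1051 in lbSSC. The lbSSC replicate 1 library lay within the vSSC range, and the difference was 0.28 ± 0.15 (adjusted p = 0.198). Rpl10a was at 520 ± 58.4 and 402 ± 55.0 FPKM, with every vSSC library above every lbSSC library and an adjusted p of 0.0542 (0.37 ± 0.13). It was called in 5 of 23 alternative fits: with a filter at an FPKM of 5, sex as a covariate or the replicate block, and without vSSC replicate 4 (0.0356) or lbSSC replicate 1 (0.0409).

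Of the 3 stalk genes, 1 was called. Rplp1 had the highest mean FPKM of all members, at 7935, 7236, 6958 and 6298 in vSSC and 6481, 6703, 4382 and 4578 in lbSSC. The male lbSSC libraries, replicates 1 and 2, lay within the vSSC range and the female ones below it, and the site difference was not called (0.38 ± 0.17, adjusted p = 0.129). Rplp0, the scaffold that anchors the stalk, was at 2813 ± 335 and 2307 ± 351 FPKM (0.29 ± 0.15, adjusted p = 0.164). Rplp2 was at 1326 ± 175 and 980 ± 154 FPKM (0.44 ± 0.15, adjusted p = 0.0484), a call lost without vSSC replicate 1, 2 or 3 or lbSSC replicate 3 or 4 (up to 0.134).

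Short transcripts differed in the same direction outside the group. Canonical members had a median transcript length of 941.5 bases, against 3063 over all rows tested. Among tested rows that are not members, the median difference was 0.32 in the 536 with a length under 1000 bases, 0.24 from 1000 to 2000, 0.09 from 2000 to 4000 and -0.07 from 4000 up, and 26.1% of the shortest class was called higher. With the trend on length removed by a loess curve over all rows, the canonical median was 0.15 (0.04 over all rows), 64 of 76 members lay above 0 and 18 of 80 were called higher (13% of all rows). The part of transcript length in the members' difference was not tested beyond this.

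The size of the shift also followed the scaling. With each library rescaled to one FPKM sum, the median over all rows moved from 0.08 to -0.04 and the split of calls from 1534 higher and 984 lower to 1002 and 1363. The canonical median was then 0.25, and 20 of 80 members were called higher (9.34% of all rows). With quantile normalization the canonical median was 0.17, against 0.03 over all rows, with 66 of 76 above 0 and 14 of 80 called higher (10.2% of all rows). Rpl39l was called lower under each of these scalings.

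Rpl39l broke the common pattern. It encodes a close copy of Rpl39, a small protein that lines the peptide exit tunnel, and is best known from male germ cells. The gene lies on chromosome 16 (GRCm38, chr16:10170226-10174911) and overlaps no other gene in GENCODE M21. Rpl39l was at 3.20, 1.36, 0.990 and 1.18 FPKM in vSSC replicates 1 to 4 and at 46.1, 33.5, 32.3 and 27.2 in lbSSC replicates 1 to 4. The lowest lbSSC library was thus far above the highest vSSC library, and the mean level in vSSC was 0.0484 of that in lbSSC. The difference was -3.78 ± 0.23 (limma, adjusted p = 1.13e-06), and the gene was called lower in each of 23 alternative fits (-4.50 to -3.64, adjusted p 1.06e-07 to 0.000161).

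Rpl39, the parent gene on the X chromosome, did not follow Rpl39l. It was at 429, 390, 480 and 263 FPKM in vSSC and at 643, 268, 233 and 462 in lbSSC. The groups overlapped over nearly their whole range, and the difference was 0.05 ± 0.29 (adjusted p = 0.924). Rpl39l therefore amounted to 0.745%, 0.349%, 0.206% and 0.448% of the Rpl39 level in vSSC and to 7.17%, 12.5%, 13.9% and 5.89% in lbSSC. The log2 ratio of the pair differed by -3.83 between the groups (exact permutation test over 70 arrangements, two-sided, p = 0.0286, the smallest this design allows; 0.114 adjusted over the 4 paralogue pairs).

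The start of Rpl39l, shown above, holds a 7-base pyrimidine run where that of Rpl39 holds 8. The 300-base promoter held the motif CGGAAG or CTTCCG at 2 places in Rpl39l and at 1 in Rpl39. The 120 bases directly upstream of the Rpl39l start are printed because this is the member whose difference is opposite to that of the others, with the motif in capitals.
Rpl39l, chr16:10170108-10170227, plus strand: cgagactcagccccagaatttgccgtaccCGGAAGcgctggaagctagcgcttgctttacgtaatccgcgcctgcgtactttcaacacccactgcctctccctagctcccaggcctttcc

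The other 3 tested paralogues were called in neither direction. Rpl22l1, whose message is repressed by the Rpl22 protein in mouse cells, was at 511, 396, 488 and 322 FPKM in vSSC and at 573, 294, 234 and 407 in lbSSC (0.25 ± 0.25, adjusted p = 0.490). Its parent Rpl22 was at 990, 823, 950 and 652 in vSSC and at 719, 603, 482 and 556 in lbSSC, where lbSSC replicate 1 exceeded vSSC replicate 4, and was called higher (0.53 ± 0.16, adjusted p = 0.0344). That call was lost without vSSC replicate 1, 2 or 3 or lbSSC replicate 2, 3 or 4 (adjusted p up to 0.102). Rpl22l1 stood at 51.7%, 48.1%, 51.3% and 49.5% of Rpl22 in vSSC and at 79.7%, 48.9%, 48.7% and 73.1% in lbSSC, so lbSSC replicates 1 and 4 lay apart from the other 6 libraries. The ratio did not differ between the groups beyond their spread (log2 difference -0.28, exact permutation p = 0.343, adjusted 0.457).

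Rps27l, a p53-induced copy of Rps27, and Rpl7l1, a relative of Rpl7, had differences close to those of their parents, and none of these 4 genes was called. Rps27l was at 251 ± 42.0 FPKM in vSSC against 193 ± 50.5 in lbSSC (0.39 ± 0.18, adjusted p = 0.125), and Rps27 at 3342 ± 498 and 2602 ± 424 (0.36 ± 0.16, adjusted p = 0.113). Rpl7l1 was at 54.8 ± 6.38 and 43.9 ± 5.20 FPKM (0.31 ± 0.12, adjusted p = 0.0820), and Rpl7 at 1545 ± 230 and 1173 ± 151 (0.39 ± 0.14, adjusted p = 0.0652). Neither pair's ratio differed between groups beyond the spread: the log2 difference was 0.03 for Rps27l over Rps27 (exact permutation p = 0.771) and -0.08 for Rpl7l1 over Rpl7 (p = 0.0857, adjusted 0.171).

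**Figure D3:**
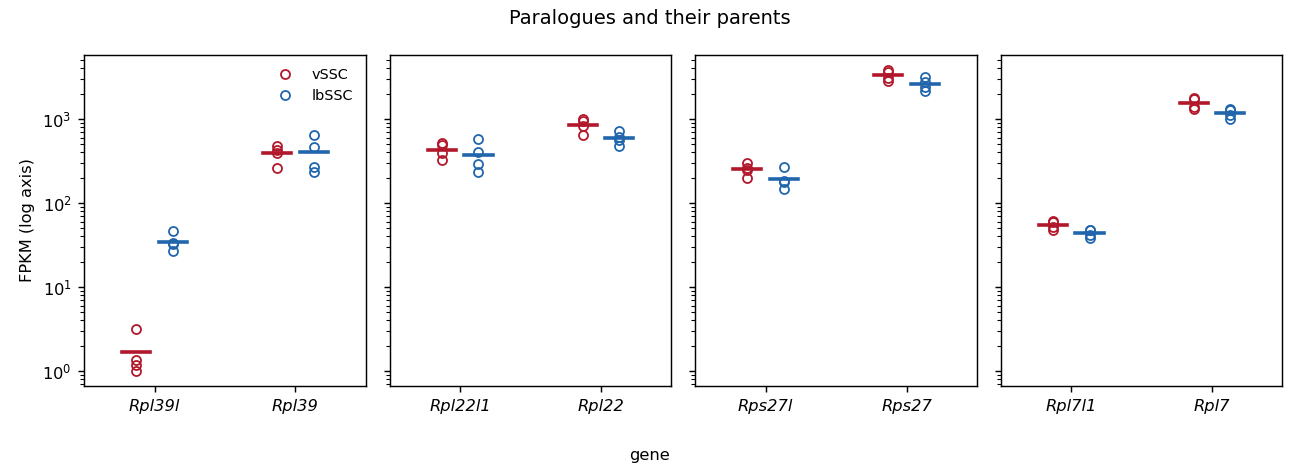
FPKM (y axis, log scale) of the 4 tested paralogues and their parents (x axis) in vSSC and lbSSC libraries, with circles for libraries and bars for group means. Rpl39l lies at 0.990 to 3.20 FPKM in vSSC and 27.2 to 46.1 in lbSSC, while the circles of the 2 groups overlap or adjoin for the other 7 genes.

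Within lbSSC, a few members spread far more than the rest, and in the same libraries. Rpl39, Rpl24, Rps20 and Rpl22l1 were high in lbSSC replicates 1 and 4 and low in replicates 2 and 3, whereas Rps26 and Rpl5 showed the reverse. Rpl24, which is mutated in the Belly spot and tail mouse, was at 595, 295, 248 and 447 FPKM in lbSSC replicates 1 to 4 and at 450.0, 347, 467 and 344 in vSSC. Rps20 was at 905, 547, 427 and 634 in lbSSC and at 662, 607, 692 and 504 in vSSC. Rps26, which lines the exit channel of the messenger RNA, was at 2947, 4361, 3885 and 2235 in lbSSC and at 5144, 4804, 5441 and 4533 in vSSC. Replicates 1 and 4 are a male and a female library, so this contrast does not follow sex. Rps20, Rpl30 and Rps4x were picked for description after their values were seen.

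These members ranked among the most variable abundant genes of lbSSC. Of the 1756 rows with an FPKM of at least 30 in every library, Rpl39 had the fifth-largest log2 SD over the lbSSC libraries (0.682), Rpl24 ranked 11 (0.570), Rpl22l1 12 (0.560), Rps20 26 (0.453) and Rps26 31 (0.431). Rpl30 ranked 37 (0.419) and Rpl5 76 (0.366). Relative to the median canonical member of each library, Rpl39 stood at -0.68 and -0.76 (log2) in lbSSC replicates 1 and 4 and at -1.89 and -1.84 in replicates 2 and 3, with -1.99 to -1.44 in vSSC. Rps26 stood at 1.51 in both lbSSC replicates 1 and 4, at 2.13 and 2.22 in replicates 2 and 3, and at 2.03 to 2.12 in vSSC. In lbSSC replicates 2 and 3, Rpl39 thus lay within the vSSC range and Rps26 just above it.

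The site comparison of these genes carried this spread. Rpl24 (0.09 ± 0.24, adjusted p = 0.810) and Rps20 (0.02 ± 0.20, adjusted p = 0.960) had the smallest differences with Rpl39. Without both lbSSC replicates 1 and 4 the difference was 0.61 for Rpl39 (adjusted p = 0.106), 0.55 for Rpl24 (0.0625) and 0.34 for Rps20 (0.207), and none of the 3 was called. Within lbSSC these 3 genes are highest in the 2 libraries left out, so the rise was fixed in advance. It therefore gives no evidence of a site difference. Rps26 was called higher with all libraries (0.61 ± 0.20, adjusted p = 0.0426), and not without lbSSC replicate 1, 3 or 4 or vSSC replicate 1, 2 or 3 (adjusted p up to 0.104). Rpl30, with a difference of 0.59 ± 0.20, was not called (adjusted p = 0.0556).

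**Figure D4:**
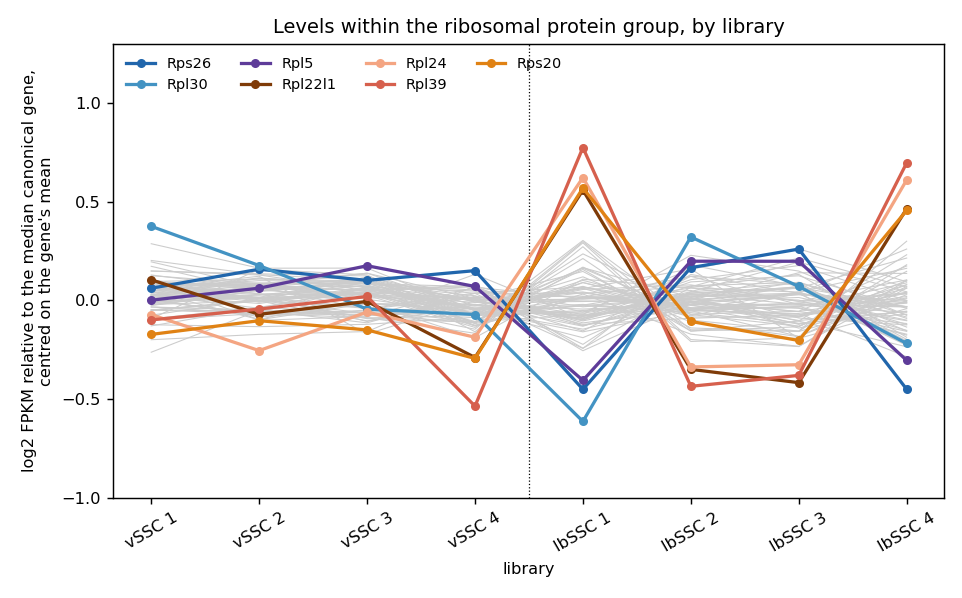
Level of each tested member other than Rpl39l and Rpl7l1 relative to the median canonical gene of the library (y axis, log2, centred on the gene's mean), by library (x axis), with 7 members in colour and the rest in grey. Rpl39, Rpl24, Rps20 and Rpl22l1 peak in lbSSC replicates 1 and 4, where Rps26, Rpl5 and Rpl30 dip.

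With the common shift set aside, few members were called. Each library was scaled to one median of the canonical members, a setting added once the data were known, and the fit was repeated over all rows. This scaling itself centres the canonical members near 0 (median 0.02, 43 of 76 above 0), so few calls among them were to be foreseen. It also lowers the other rows (median over all rows -0.24), so the shares of all rows below are not a like-for-like background. Then 1 member was called higher, Rps12 (0.28 ± 0.09, adjusted p = 0.0459, where 3.69% of all rows were called higher), and 2 lower, Rpl39l (-4.07 ± 0.21) and Rps4x (-0.23 ± 0.07, adjusted p = 0.0376, where 21.6% of all rows were called lower). Rps4x, the X-linked small subunit gene, was at 1470, 1276, 1515 and 1251 FPKM in vSSC and at 1468, 1277, 1101 and 1151 in lbSSC, with the groups overlapping and no call as deposited (0.14 ± 0.13, adjusted p = 0.433). On the relative scale it stood at 0.21 to 0.26 in vSSC and 0.36 to 0.56 in lbSSC. Rps12 was called on this scale in 4 of 13 settings (adjusted p up to 0.347), Rps4x in 4 of 13 (up to 0.220) and Rpl39l in 13 of 13. Of the 8 fits with 1 library left out, Rps12 was called in that without vSSC replicate 4, and Rps4x in those without vSSC replicate 4 and without lbSSC replicate 2.

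The sexes did not differ in any member past the threshold. With site as a covariate, no member was called between male and female libraries (smallest adjusted p 0.566, limma), where 0.0466% of all rows (5 rows) were called. At an unadjusted p under 0.05 there were 4 members (Rplp1, Rps2, Rpl31 and Rpl39l), against 8.31% of all rows. Rps2 and Rpl31 are named after their values were seen. All 76 canonical differences were above 0, meaning higher in males, against 64.8% of all rows, with a median of 0.20 against 0.07. With the length trend removed, this median was 0.01. For the interaction of site and sex no member was called, 0% of all rows were called and 0 members had an unadjusted p under 0.05, against 3.77% of rows. Its value was below 0 in 75 of 76 canonical members, against 58.2% of rows, with a median of -0.30 against -0.06 over all rows.

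With all libraries, the counts of the lists below are to be read against all rows tested. Of these, 14.3% were called higher and 9.17% lower, with a median of 0.08. The share of all rows called higher was 7.82% to 8.32% without vSSC replicate 1 or 3 or lbSSC replicate 3 or 4. It was 10.1% without vSSC replicate 2 and 17.5% without vSSC replicate 4. Ribosomal proteins that the naming rule leaves out gave 1 call among 5. Rpl36al, a copy of Rpl36a, was at 384 ± 58.3 FPKM in vSSC against 235 ± 37.4 in lbSSC (0.71 ± 0.15, adjusted p = 0.00653), a difference above that of every member. The list's median was 0.34.

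Another list held 25 genes, mostly translation factors, chosen by name for a 5′ pyrimidine tract, and their start sites were not examined here. Of these 25, 8 (32%) were called higher and none lower (median 0.30). The smallest p-values were in Eif3h, a subunit of initiation factor eIF3 (0.54), Btf3, of the nascent polypeptide-associated complex (0.57), and the histone chaperone Nap1l1 (0.53). The number called was 2 (8%, where 7.82% to 8.32% of all rows were called) on leaving out vSSC replicate 1 or 3 or lbSSC replicate 4 and 5 on leaving out vSSC replicate 2 or lbSSC replicate 3. Btf3 was not called without vSSC replicate 1 or 3 (adjusted p up to 0.0528), nor Nap1l1 without either of these or lbSSC replicate 4 (up to 0.0656). Of 16 cap-binding and initiation factors, 6 (37.5%) were called higher (median 0.30), and 2 without vSSC replicate 1, vSSC replicate 3 or lbSSC replicate 3, 3 without lbSSC replicate 4 and 4 without vSSC replicate 2. Eif5a, which carries the hypusine residue and aids peptide bond formation, was at 815 ± 64.7 FPKM in vSSC against 534 ± 88.8 in lbSSC (0.62 ± 0.14, adjusted p = 0.00782).

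Of 39 ribosome biogenesis genes, 14 (35.9%) were called higher and none lower (median 0.35). The number was 7 without vSSC replicate 1 or lbSSC replicate 4, 8 without vSSC replicate 3 and 9 without lbSSC replicate 3. In these 4 fits 7.82% to 8.32% of all rows were called higher. Ltv1, which helps assemble the small subunit, was at 44.8, 41.8, 42.4 and 39.6 FPKM in vSSC and at 26.4, 29.7, 25.8 and 23.2 in lbSSC, well apart in every library (0.66 ± 0.11, adjusted p = 0.00118). Fbl, the methyltransferase of ribosomal RNA, differed by 0.61 ± 0.11 (adjusted p = 0.00299) and Mrto4, a large subunit assembly factor, by 0.66 ± 0.12 (adjusted p = 0.00322). Of 18 genes of RNA polymerase I and its factors, 4 (22.2%) were called higher, with a median of 0.31, and 2 were called without vSSC replicate 1, lbSSC replicate 3 or lbSSC replicate 4. The called genes were Polr1c (0.52) and, with symbols of RNA polymerase II, Polr2h (0.67), Polr2k (0.61) and Polr2l (0.44). Polr1b (0.36, adjusted p = 0.116) and Taf1b (0.43, adjusted p = 0.0545) were not called. The call of Polr2l was lost in all 8 fits with 1 library left out (adjusted p 0.0520 to 0.137).

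Of 19 tested regulators of ribosome synthesis, none was called higher and 1 (5.26%) lower, the Myc antagonist Mxd4 (-0.38 ± 0.11, adjusted p = 0.0315), and the median was -0.03. The call of Mxd4 was lost in 7 of the 8 fits with 1 library left out, all but that without lbSSC replicate 4 (adjusted p up to 0.0762), and without vSSC replicate 4 there were 2 regulators called higher and 1 lower. Of 13 translation repressors and integrated stress response genes, none was called higher and 2 (15.4%) were called lower, with a median of -0.09: Ppp1r15a, which restores eIF2 activity after stress, at 16.0 ± 6.75 against 36.4 ± 5.03 FPKM (-1.20 ± 0.21, adjusted p = 0.00257), and the stress transcription factor Ddit3 at 5.95 ± 1.77 against 10.96 ± 1.35 FPKM (-0.81 ± 0.18, adjusted p = 0.00933). Without both vSSC replicates 1 and 3, 4.69% of all rows were called higher. The higher calls then numbered 1 in the pyrimidine-tract list, 3 among ribosome biogenesis genes and 0 in the other 3 lists with calls. Without both lbSSC replicates 1 and 4 (4.86% of all rows) they numbered 0 and 4, and 1 in each of the other 3.

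The annotation bears on every level given. Ribosomal protein genes have many processed pseudogenes, and how fragments that fit several places were assigned is not given in the sources used. Of the 83 members, 25 overlap another gene in GENCODE M21 and 31 hold small RNA genes within their introns or exons.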

How the data were processed

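The authors deposited 1 table of FPKM values for protein-coding genes in the 8 libraries. SMART-Seq v4 and Nextera XT chemistry was used, per the labels' protocols, and it keeps no strand information. The submitters' processing notes name GRCm38 and the tools STAR 2.5.2, Cufflinks 2.1.1 and bcl2fastq 2.19, while their parameters are not given in the sources used. Without read totals, precision is known only from the replicates.

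In R 4.3.3, log2(FPKM + 1) was computed, and rows reaching an FPKM of 1 in 4 or more of 8 libraries were tested with limma 3.58.1 (empirical Bayes with a variance trend, Benjamini-Hochberg adjustment over all 10729 rows). The site fit used all 8 libraries with no covariate, the sex fit was adjusted for site, and a further fit held their interaction. The procedure was also run on simulated data with independent noise in each row, which does not cover genes that move together within a library. Ratios of paralogue to parent were compared by exact permutation. Starts listed in the table were raised by 1 to count from 1. Promoters are from RefSeq (GRCm38.p6).

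The members and gene lists were chosen with earlier results of these data known. Members were named with values if they were tested paralogues or their parents, the 4 canonical members of highest mean FPKM, the 5 called members without overlap at each end of the differences, or 12 genes chosen by name, besides up to 3 genes per list. Alternatives were other pseudocounts, filters, scalings, variance models, a sex covariate, a replicate block, a length correction and libraries left out.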

Additional observations from a re-analysis of the deposited data

Results flagged for a closer look

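In 1 of 64 groups of 4 libraries examined, a single library stood apart from the others beyond the 95% limit for a gap at the end of the range. This was Rpl39l in vSSC, where replicate 1 was at 3.20 FPKM and the other 3 libraries at 0.990 to 1.36 FPKM. Chance flags about 1 in 20 groups. Replicate 1 also had the highest Rpl39l level among the lbSSC libraries (46.1 FPKM). Without vSSC replicate 1 the site difference of Rpl39l was -4.02 (limma, adjusted p = 3.32e-07).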

How the results depend on the processing

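Of the members, 33 were called higher in vSSC with all libraries, and the count moved by over 1.5 times under several settings. Beside the share of all rows called higher (14.3% with all libraries), it was 5 of 82 with no filter (7%, above the members' 6.1%), 14 of 80 with quantile normalization (10.2%), 20 with one FPKM sum (9.34%), 18 with the length trend removed (13%), 21 without a variance trend (12.2%) and 19 with library weights (13.3%). With 1 library left out it ranged from 1 to 51 (7.82% to 17.5% of all rows), and it was 0 without vSSC replicates 1 and 3 and 0 without lbSSC replicates 1 and 4, the latter chosen after the data were seen. Fits without libraries also hold fewer samples, and the cause of these changes was not tested for any setting. The count was 32 with pseudocounts of 0.1 and 0.01, 39 with a filter at an FPKM of 5, 27 with median-of-ratios scaling, 26 with one sum over non-members and 39 with sex as a covariate. The median difference of the canonical members was 0.17 with quantile normalization and 0.15 with the length trend removed. Leaving out 1 library kept it between 0.32 and 0.47, and the share difference between 2.73 and 3.77 percentage points. The count called lower was 1, Rpl39l, in every setting run. On the relative scale, where 1 member was called higher and 2 lower, leaving out 1 library gave 0 to 1 higher and 1 to 3 lower. Leaving out lbSSC replicates 1 and 4, or vSSC replicates 1 and 3, gave 0 higher and 1 lower, and the replicate block gave 1 higher and 1 lower. With the replicate number as a block, 46 members were called higher (18.8% of all rows). For same-numbered libraries, the deviations from each row's group mean correlated at 0.26, -0.088, -0.064 and 0.44 for numbers 1 to 4. Only libraries 1 and 4 matched their own number best, so the numbers were not taken to pair the libraries. The values hold no counts, so the depth behind each is unknown, and the number of libraries limits the precision.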
